A study of Nematostella vectensis with 15 samples.

Results

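The comparison described here asked, gene by gene, where the response of the sea anemone *Nematostella vectensis* to culture temperature departed from a straight line. For every gene, the level at 20 °C was set against the midpoint of the levels at 15 and 25 °C on the log2 scale, and this difference is called the curvature below. A gene that rises or falls by equal log2 steps has a curvature of 0, a positive curvature means that 20 °C lies above the midpoint, and a negative one that it lies below. All 15 libraries of the series entered the comparison, 5 from polyps at 15 °C, 5 at 20 °C, and 5 at 25 °C. All polyps were acclimated adult females, F1 offspring of the cross CH2XCH6, kept in artificial sea water of 16‰ salinity, and the labels give the mesenteric body portion as the tissue. The groups differed by label only in temperature, and the labels name no other agent and no allele for any group. The labels do not say whether the polyps of a temperature shared a vessel or a day of sampling, so such effects and temperature cannot be told apart. They also do not say that each library came from its own polyp, and p-values then measure only the spread between these libraries.

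*Nematostella* is a burrowing estuarine sea anemone, whose body temperature follows that of the water. Its mesenteries are folds of tissue in the body cavity that carry the gonads, retractor muscles, digestive gland cells, and stinging cells, so that RNA from this tissue comes from many cell types. In such bulk RNA, fewer cells of a type and less RNA per cell cannot be told apart. A straight reaction norm, the level of a trait plotted against an environment, is the simplest form of plasticity; curved forms include responses that level off at one end and those with an optimum or a minimum between the ends. No identifier in the files could be matched to a RefSeq symbol, so gene functions, gene groups, and tissue markers were not analyzed here. Genes are described by their levels, their shape over temperature, and the structure and position of their models.

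Of the 27527 deposited gene models, 20376 are JGI predictions and 7151 were built by the TACO assembler from RNA-seq reads, and 17818 had counts high enough to be tested. Library totals ran from 3526175 to 22160961 counts, and the median was 7727786 for the 15 °C group, 14234219 for 20 °C, and 11095025 for 25 °C. The mean log2 total at 20 °C was 0.476 above the midpoint of the other temperatures (two-sided exact permutation test over 3003 assignments, p = 0.188, adjusted over 4 measures p = 0.251). The 10 most abundant genes took 17.2% to 20.1% of the counts at 15 °C, 12.7% to 16.2% at 20 °C, and 13.6% to 14.8% at 25 °C, and the mean at 20 °C stood at −2.52 percentage points from the midpoint (exact permutation p = 0.0786, adjusted p = 0.163). Both permutation tests exchanged libraries of all temperatures, and thus took those at 15 and 25 °C as alike. Yet the mean log2 total was 22.8 at 15 °C and 23.6 at 25 °C. The mean share of the 10 most abundant genes was 18.8% and 14.0%. Such differences widen the spread of the permuted values, so these p-values do not settle whether either measure departs from the midpoint. Replicate 3 at 15 °C had the lowest total of all libraries.

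Of the 17818 genes, 1059 (5.94%) departed from the midpoint at an adjusted p under 0.05 in edgeR's quasi-likelihood test, and are named called genes below. They divided unequally between the directions. At 20 °C, 769 genes (4.32% of those tested) were higher than the midpoint and 290 (1.63%) were lower, so that 72.6% of the departures were upward. The median curvature over all tested genes was 0.01. An unadjusted p under 0.05 was reached by 3159 genes (17.7%). Most departures were small: among the genes called higher the median curvature was 0.63, with quartiles of 0.45 and 0.92, and among those called lower it was −0.55, with quartiles of −0.75 and −0.43. A departure of at least 1 on the log2 scale was reached by 154 of the higher and 24 of the lower genes, and one of at least 1.5 by 22 and 3. With replicate 4 at 20 °C left out, 693 genes were called (576 higher and 117 lower). The lower genes depended more on single 20 °C libraries, with 151 called without replicate 2 and 191 without replicate 3. In simulated libraries with the same design, the test recovered 92 of 100 planted departures of 1 and 37 of 100 of 0.5, with 7 false calls. There, other genes had the same expected share of counts at every temperature, and counts were drawn independently. Departures were planted only at an average log2 CPM of 0 or more. The false calls thus do not cover effects shared by the libraries of a temperature.

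**Figure D1:**
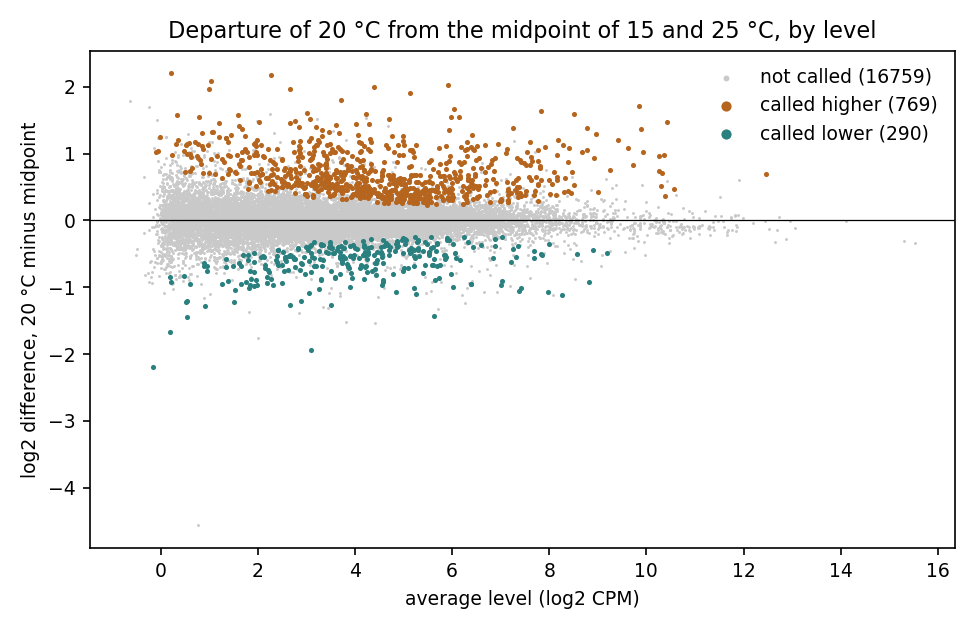
Log2 difference between 20 °C and the midpoint of 15 and 25 °C (vertical axis) against the average level in log2 CPM, counts scaled to the library total (horizontal axis), with 1 point per tested gene. The 769 genes called higher reach 2.20 and lie at low and high levels, as do the 290 called lower.

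The order of the 3 means was recorded for each called gene. In 669 of the 769 higher genes (87.0%), the mean level at 20 °C exceeded both other means, against 26.0% of all tested genes. In 249 of the 290 lower genes (85.9%), it was below both, against 23.0% of all tested. The choice of genes by the contrast favors such orders. The step between 20 and 25 °C was fitted for every gene, but its p-values were not used for these counts. A gene that levels off above 20 °C can therefore be counted here through noise. The shares are a description. The remaining 100 higher and 41 lower genes had their 20 °C mean between the others. Of these 100, 89 increased with temperature, and the median gene had covered 93.0% of its way from the 15 °C to the 25 °C mean by 20 °C. Of the 41, 40 decreased, with a median of 93.4% of the way. The median intermediate gene thus changed little between 20 and 25 °C.

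The most frequent order of the means among higher genes was lowest at 15 °C, intermediate at 25 °C, and highest at 20 °C, which 552 of 769 (71.8%) followed, against 16.6% of all tested. Another 117 (15.2%) were lowest at 25 °C, intermediate at 15 °C, and highest at 20 °C. Among lower genes, 219 of 290 (75.5%) were highest at 15 °C, intermediate at 25 °C, and lowest at 20 °C, against 13.7% of all tested. The median log2 difference between 20 and 15 °C was 0.89 in the higher genes, and that between 25 and 20 °C was −0.24. In the lower genes these medians were −0.90 and 0.26. Both steps share the 20 °C libraries, and the curvature test itself compares them with each other. The choice of genes thus favors unequal steps, and these medians are a description. With the arithmetic midpoint of mean CPM in place of the log2 midpoint, all 769 higher genes stayed above it. The 290 lower genes stayed below, which the arithmetic midpoint favors, since it is not below the geometric midpoint of the same means.

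**Figure D2:**
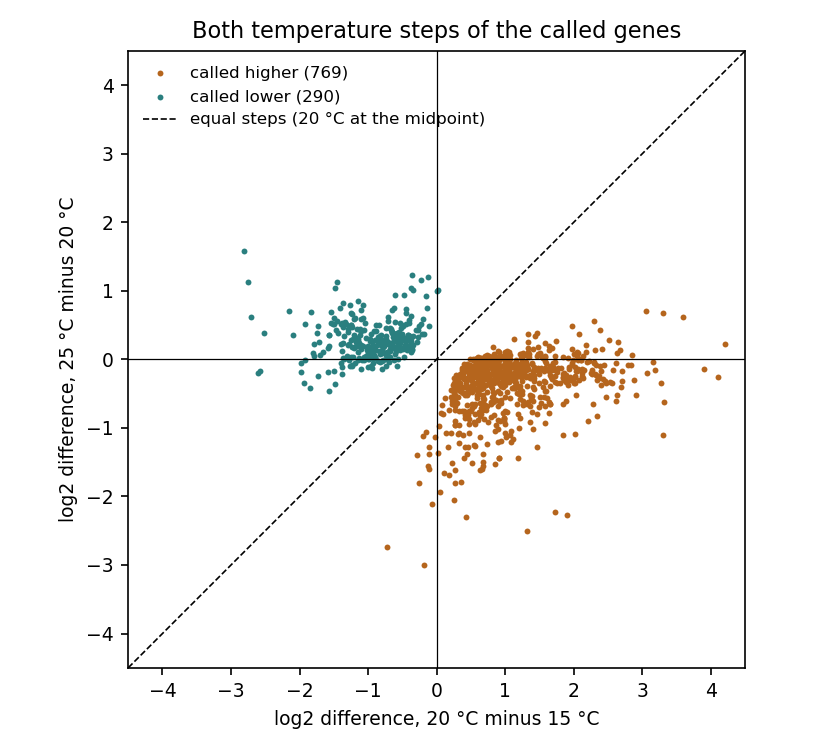
Log2 difference between 25 and 20 °C (vertical axis) against that between 20 and 15 °C (horizontal axis) for the 1059 called genes, with the dashed line where both steps are equal. Most of the 769 higher genes lie right of 0 and just below the horizontal line (medians 0.89 and −0.24), and most of the 290 lower genes lie opposite (−0.90 and 0.26).

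The pattern was seen in each library. Each gene's log2 CPM was taken relative to the midpoint of its mean log2 CPM at 15 and at 25 °C. The median over the higher genes was −0.37 to −0.24 in the 15 °C libraries, 0.58 to 0.67 at 20 °C, and 0.22 to 0.47 at 25 °C. The 3 temperatures did not overlap, and the 25 °C libraries were nearer to those at 20 °C than the 15 °C libraries were. For the lower genes the medians were 0.12 to 0.57 at 15 °C, −0.66 to −0.42 at 20 °C, and −0.38 to −0.21 at 25 °C. These medians describe the same libraries that chose the genes. The median over all tested genes was between −0.01 and 0.02 in every library.

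The 20 °C libraries were also described by genes chosen without them. Each 20 °C library was left out in turn, genes were called from the other 14, and the library left out was set against the midpoint of the 15 and 25 °C means. Of the genes called higher, 93.0% to 99.2% were above the midpoint in the 20 °C library left out, against 51.6% to 53.4% of all tested genes. Of the genes called lower, 87.4% to 99.1% were below it, against 46.6% to 48.4%. Replicate 1 had the smallest share in both directions. The median departure in the libraries left out was 0.58 to 0.69 for higher genes and −0.61 to −0.38 for lower genes. The 15 and 25 °C libraries were shared by the choice and the check, and only the 20 °C library was independent. A midpoint shared with the choice favors the called side, so these shares are a description.

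A stricter description asked for which genes the libraries at 20 °C stood apart from all others. All 5 libraries at 20 °C were above the other 10 in 87 genes (0.488% of those tested), of which 84 were called. They were below the other 10 in 26 genes (0.146%), of which 25 were called. Of the 87, 6 had a single exon and 56 were JGI models, and the 25 °C mean exceeded the 15 °C mean in 62. Of all 17818 tested, 14.7% had a single exon and 11852 were JGI models. The fitted difference between 25 and 15 °C was positive in 50.5% of them. Their median log2 difference from 15 °C was 0.85 and that from 25 °C was 0.62, both measured on the mean log2 CPM. The gap between the lowest 20 °C library and the highest of the other 10 had a median of 0.09 and reached 0.65 on the log2 scale. In the 26 genes below, the median differences were −0.56 from 15 °C and −0.39 from 25 °C. Their gap had a median of 0.06 and reached 0.24.

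The gene with the largest positive curvature among called genes at or above an average log2 CPM of 0 was NEMVEDRAFT_v1g131566, a JGI model with a single exon of 216 bp on the minus strand of scaffold 297, from position 216739 to 216954. The exon is entirely coding in the model. Its counts were 3, 1, 0, 0, and 2 at 15 °C, 23, 22, 16, 21, and 33 at 20 °C, and 12, 13, 13, 6, and 6 at 25 °C. Its mean level was 0.148 ± 0.164 CPM (SD, n = 5) in the 15 °C libraries, 1.75 ± 0.476 in those of 20 °C, and 0.867 ± 0.531 in those of 25 °C. Every library at 20 °C was above every library at 15 °C, while 2 libraries at 25 °C reached the range of those at 20 °C. The curvature was 2.20 ± 0.38 (SE, adjusted p = 0.000978, edgeR's quasi-likelihood test). With 0 to 3 counts in each library at 15 °C, the fitted size depends on the prior count of the fit, and no fold is given. The gene was kept by the filter on low counts through the libraries where it is high.

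The higher gene whose 20 °C mean stood farthest from the nearer of the other means, among those without overlap, was NEMVEDRAFT_v1g51398, a JGI model of 4 exons (867 bp, all coding) on the plus strand of scaffold 203, from position 95821 to 100802. Its levels were 2.11, 1.43, 2.58, 1.91, and 1.29 CPM at 15 °C, 3.66, 4.02, 7.13, 6.40, and 3.57 CPM at 20 °C, and 2.90, 2.16, 1.42, 1.76, and 1.61 CPM at 25 °C. The levels at 15 and 25 °C covered nearly the same range, and the gene had its high values at 20 °C alone. The mean was 4.96 ± 1.68 CPM (SD, n = 5) at 20 °C, against 1.86 ± 0.522 at 15 °C and 1.97 ± 0.587 at 25 °C. The curvature was 1.36 ± 0.21 (SE, adjusted p = 0.000326, edgeR), a 2.57-fold departure.

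Above the same level, the most negative curvature was that of NEMVEDRAFT_v1g244734, a JGI model of 7 exons (1362 bp, of which 1047 are coding) on the plus strand of scaffold 132, from position 370298 to 373238. Its levels were 16.6, 5.51, 41.3, 23.5, and 12.7 CPM at 15 °C, 2.37, 1.96, 3.35, 1.31, and 4.80 CPM at 20 °C, and 5.26, 6.83, 2.94, 8.90, and 6.57 CPM at 25 °C. All libraries at 20 °C were below those at 15 °C, and 1 library at 25 °C was within the range of those at 20 °C. The curvature was −1.94 ± 0.45 (SE, adjusted p = 0.0195, edgeR), a 3.83-fold departure. The adjusted p was 0.0559 without replicate 1, 0.0556 without replicate 2, and 0.0622 without replicate 4 at 20 °C.

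Among the lower genes without overlap, NEMVEDRAFT_v1g67111 stood farthest from the nearer mean. It is a JGI model of 2 exons (342 bp, all coding) on the plus strand of scaffold 6, from position 1643616 to 1644389. Its levels were 2.48, 1.76, 7.09, 1.55, and 1.80 CPM at 15 °C, 0.981, 0.870, 1.05, 0.756, and 0.923 CPM at 20 °C, and 2.27, 1.20, 1.11, 2.73, and 2.38 CPM at 25 °C. The libraries at 20 °C were close to each other and below all others, by a small margin from 2 libraries at 25 °C. The high value at 15 °C came from replicate 3, the library with the lowest total, where it stood on 22 counts. The curvature was −1.29 ± 0.32 (SE, adjusted p = 0.0200, edgeR), and −1.09 with that library left out (adjusted p = 0.0106). The adjusted p was 0.0641 without replicate 4 at 20 °C and 0.0742 from the first run alone.

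**Figure D3:**
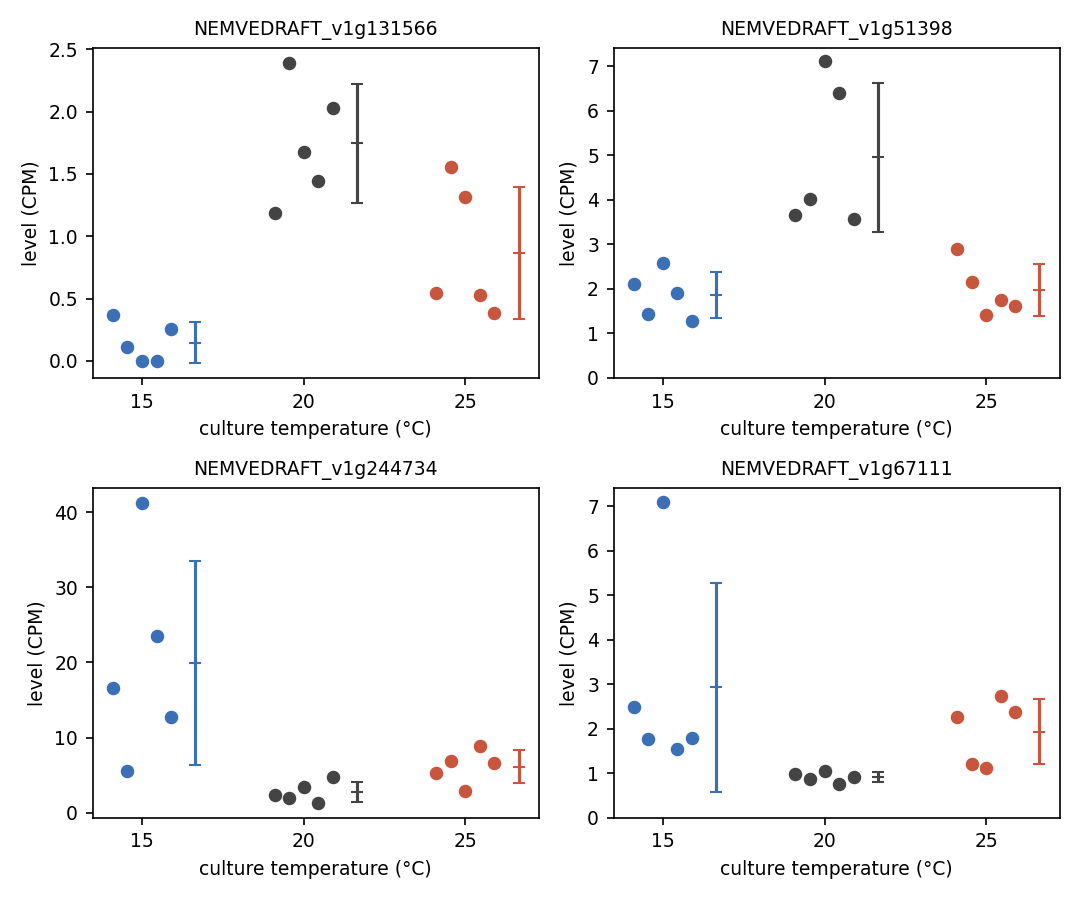
Level in CPM (vertical axis, linear) of the 4 named genes by culture temperature; each point is a library, and bars give the mean and SD of 5 libraries. The 20 °C libraries of NEMVEDRAFT_v1g51398 (3.57 to 7.13 CPM) lie above the other 10, and those of NEMVEDRAFT_v1g67111 (0.756 to 1.05 CPM) below.

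The same rule chose 23 genes in all, 8 with the largest curvature in each direction and 4 without overlap in each, with 1 gene in both lower sets. The 8 with the largest positive curvature ran from 1.91 to 2.20, and 5 of them had a single exon, against 14.7% of all tested genes. None of the 8 had all of its 20 °C libraries above the other 10. They came in different shapes. A single-exon JGI model of 267 bp on scaffold 3 averaged 5.84 ± 4.85 CPM (SD, n = 5) when cold, at 15 °C, but 90.4 ± 16.5 at 20 °C and 81.9 ± 19.8 at 25 °C, and its low values were those at 15 °C. A TACO model of 4 exons on scaffold 61 averaged 26.5 ± 10.1, 65.7 ± 32.7, and 11.2 ± 6.02 CPM in the same order. That model overlaps another on the same strand, and how reads were divided between them is uncertain. A pair of single-exon JGI models of 234 bp each on scaffold 82, from position 189625 to 189858 and from 202309 to 202542, had nearly the same counts. At 20 °C they had 45, 42, 30, 20, and 98 counts and 46, 48, 32, 23, and 96 counts. If they are near-identical copies, which was not tested, reads could have been split between them, and they may stand for 1 signal.

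Among the 4 higher genes without overlap, a JGI model of 2 exons on scaffold 11, from position 396541 to 397423, had the highest level. Its level was 30.1 ± 7.43 CPM (SD, n = 5) in the 15 °C libraries, 122 ± 9.34 in those of 20 °C, and 57.1 ± 17.2 in those of 25 °C. The curvature was 1.56 ± 0.15 (SE, adjusted p = 4.91e-06, edgeR). The 8 most negative curvatures ran from −1.94 to −1.23, and 2 of those genes had a single exon, against 14.7% of all tested. The gene at −1.23, a TACO model of 3 exons, lost the threshold in 12 of 24 alternatives. A TACO model of 11 exons on scaffold 64 averaged 20.3 ± 4.96 CPM at 15 °C, 5.68 ± 1.41 at 20 °C, and 8.98 ± 3.37 at 25 °C. Of the 23 genes, 17 stayed past the threshold in every alternative that could be computed for them, and none changed direction. These were all 12 of the higher genes and 5 of the 11 lower genes.

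The structure of the gene models, which the contrast did not use, is described by the share of each class that was called, beside 4.32% higher and 1.63% lower over all tested genes, and no difference between classes was tested. Single-exon models were called higher in 147 of 2628 (5.59%) and lower in 24 (0.913%). Models of 6 or more exons were called higher in 280 of 8116 (3.45%) and lower in 150 (1.85%). JGI models without an assembled TACO counterpart were called higher in 228 of 3635 (6.27%), against 3.78% of those with a counterpart. Models of 30 kb or more were called higher in 27 of 513 (5.26%) and lower in 5 (0.975%), shares near those of the single-exon models. Models that overlap another on the opposite strand were called higher in 3.74% and lower in 1.08%. The study's methods name FeatureCounts with default parameters, which ignore strand, so reads of a gene and its antisense partner cannot be told apart if the deposited counts were made that way.

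The share of higher calls also moved with the level. Genes with an average log2 CPM under 2 were called higher in 1.97%, those at 2 to 4 in 3.65%, those at 4 to 6 in 5.62%, and those at 6 or more in 7.64%. The lower calls followed no such order, with 0.889%, 1.73%, 2.15%, and 1.54%. The median curvature did not rise with the level, at 0.027, −0.003, 0.007, and 0.017. Its quartiles were −0.165 and 0.213 under 2, and −0.090 and 0.125 at 6 or more. The share called also depends on how many counts a gene has. Whether abundant genes depart more was not tested. Single-exon models had a median log2 CPM of 2.18 and models of 6 or more exons 4.45, so level runs against the difference between exon classes. At a log2 CPM of 2 to 4, 7.55% of 967 single-exon models, 4.05% of 2691 with 2 to 5 exons, and 1.67% of 2458 with 6 or more were called higher. At 4 to 6 the shares were 8.52%, 8.82%, and 3.99%, without a decline from single-exon models to those of 2 to 5 exons. At 6 or more they were 12.7% (13 of 102 single-exon models), 9.38%, and 6.53%, and under 2 they were 2.57%, 2.03%, and 0.798%. In each of the 4 classes of level, models of 6 or more exons had the smallest share of higher calls. Lower calls ran otherwise, and single-exon models had the smallest share of them in each class, on few genes (3, 14, 6, and 1 from the lowest level to the highest). At 2 to 4 their share was 1.45%, against 1.60% for models of 2 to 5 exons. At 6 or more it was 0.980%, against 1.16% for models of 6 or more exons.

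Genes called higher lay next to each other on the scaffolds more often than tested genes at large. Of the 719 higher genes with a tested neighbor that they do not overlap, 243 (33.8%) had at least 1 neighbor called higher, against 7.78% of all tested genes and 4.61% of the genes called lower. When only neighbors on the same strand within 5 kb were counted, the share was 16.1%, against 1.86% of all tested. With all other neighbors, on the opposite strand or farther away, it was 20.3%, against 6.09%. For the genes called lower, 20 of 282 (7.09%) had a neighbor called lower, against 3.38% of all tested. Neighboring models on the same strand can be fragments of 1 transcription unit or copies from a tandem duplication, which was not tested. These shares are descriptions, since genes on a scaffold are not independent.

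**Figure D4:**
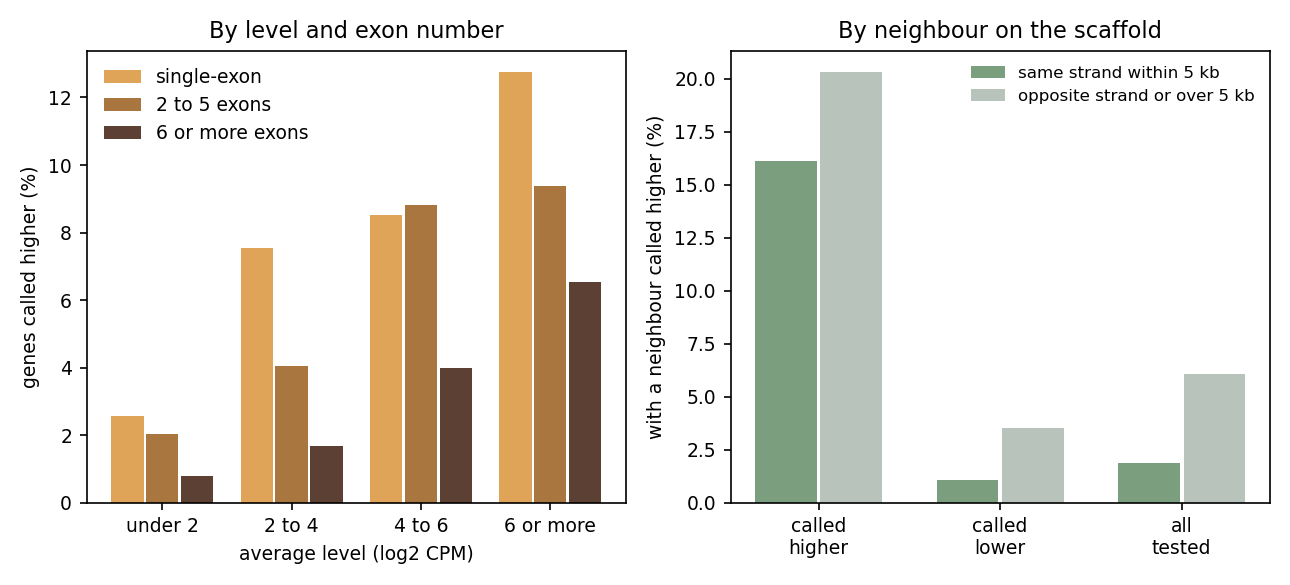
Left, percent of tested genes called higher at 20 °C (vertical axis) by average level in log2 CPM and exon number. Right, percent of genes with a neighboring gene called higher, for genes called higher, called lower, and all tested, by strand and distance of the neighbor; higher genes reach 16.1% and 20.3%, against 1.86% and 6.09% of all tested.

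The 769 higher genes formed 620 stretches of neighboring called genes, of which 106 held 2 or more genes (255 genes in all) and 25 held 3 or more. Of the 142 pairs of adjacent higher genes, 112 (78.9%) were on the same strand, against 49.0% of all 15467 adjacent pairs. The median gap of 4411 bp was close to that of all pairs, 4221 bp. The longest stretch held 7 JGI models on the minus strand of scaffold 363 and spanned 114071 bp. Their curvatures ran from 0.44 to 0.78, and the models had 1 to 10 exons. Each had its larger step between 15 and 20 °C, from 0.68 to 1.30 on the log2 scale, and a smaller negative one to 25 °C, from −0.30 to −0.06. The 290 lower genes formed 278 stretches, the longest of 3 genes.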

How the data were processed

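The authors deposited 1 table of raw counts per gene model for 15 libraries made from polyadenylated RNA with a stranded kit, and the gene models. The submitters' processing notes name Trimmomatic 0.38, HISAT2 2.1.0, StringTie 2.0, and featureCounts. The study's methods give default parameters for FeatureCounts, which ignore strand; whether the deposited counts were made in the same run is not stated. Every library came as a pair of count columns that no label explains, taken here as runs and added together. Totals ran from 3526175 to 22160961 counts.

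Genes were fitted over all libraries in R 4.3.3 with edgeR 4.0.16 (TMM, filterByExpr, robust quasi-likelihood F-test), with the contrast of 20 °C minus the mean of 15 and 25 °C. Benjamini-Hochberg adjustment ran over all 17818 genes tested. CPM used TMM-scaled totals, and log2 CPM a prior count of 2. Means, shapes, and neighbors were computed in Python 3.11.15 with pandas 2.3.3, and figures drawn with matplotlib 3.10.9. Alternatives used DESeq2 1.42.0, limma-voom (limma 3.58.1), other filters and scalings, each run alone, thinned libraries, a replicate block, and each library left out. The tests were tried on simulated counts with 200 changed genes.

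Named genes were called genes whose average log2 CPM was 0 or more: the 8 largest and 8 most negative curvatures, and, of those whose 20 °C libraries did not overlap the other 10, the 4 per side with the largest distance to the nearer mean; at most 2 identifiers per direction are printed. Genes named by function and gene lists were void, since 0 identifiers matched the 38762 RefSeq genes. The comparison, rules, and lists were chosen with earlier results of these data known. No sequence was used.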

Additional observations from a re-analysis of the deposited data

Results flagged for a closer look

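The log2 total count of replicate 3 at 15 °C lay apart from the other 4 libraries of its temperature: it was 21.7, and the others were between 22.8 and 23.2. The gap to the nearest was 0.758 of the whole range of the 5, above the limit of 0.71 for groups of this size. It was the only one of 30 groups of values examined in this way, and chance gives about 1.5 in 30. Without this library 954 genes were called, 709 higher and 245 lower, and 932 of the 1059 genes were called again in the same direction.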

How the results depend on the processing

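The called genes kept their direction where an alternative tested them, except 1 with the second run alone. Called genes that an alternative filtered out could not be counted. The alternatives reused the same counts or a part of them, which favors the same sign. The genes shared in the same direction were 1052 of 1059 with DESeq2, 1021 with limma-voom, and 644 with thinned libraries. Counts moved more. With each library left out in turn, 693 to 1221 genes were called, 576 to 853 higher and 117 to 368 lower. The lowest numbers were those without replicate 4 at 20 °C, and the lower genes were 151 without replicate 2 and 191 without replicate 3 at 20 °C. DESeq2 called 466 genes lower and thinning to the lowest total left 172. The second run alone called 511 higher. With a log2 departure of at least 1 required, 178 genes were called, 154 higher and 24 lower. All other alternatives gave total counts of 722 to 1338, within 1.5 times the main count. The share of higher calls was 65.2% with DESeq2 and 66.4% with upper-quartile factors. The cause of these differences was not tested, except that thinned libraries and single runs hold fewer counts.

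A replicate block called 1166 genes, 841 higher and 325 lower. The labels give no shared origin for libraries of the same number, and the main fit did not pair them. Residuals of same-numbered libraries correlated from −0.09 to 0.29 (mean 0.09), over 0.1 in 6 of 15 pairs. Those of differently numbered libraries correlated from −0.35 to 0.31 (mean −0.02), over 0.1 in 13 of 60 pairs. Whether the numbers pair the samples was not tested. The genes with all 20 °C libraries above the other 10 numbered 97 without replicate 3 at 15 °C and 87 by total-count CPM, and those below 31 and 19. The share of higher genes with a neighbor called higher was 34.4% with DESeq2 and 28.1% thinned, and that of single-exon models called higher 5.82% and 4.67%, alternatives chosen after seeing the data. Gene-list alternatives were not run, since no identifier matched.

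Depth limited genes at low counts: a count of 0 allows up to 3 counts, 0.851 CPM in the smallest library and 0.135 in the largest, from counting error only.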
